A study of Mus musculus with 4 samples.

Results

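Several gene families of the mouse liver arose by tandem duplication, and their copies are so alike that a microarray probe set often reads more than 1 of them. The rows described here are those probe sets of the series whose platform annotation lists 2 or more gene symbols, with at least 1 symbol of the Mup, Cyp2, Cyp3a, Cyp4a, Ugt, Sult, Serpina, Ces or Gst families. The rule found 27 rows among the 35556 of the table, or among the 1621 with several symbols. There were 7 Mup, 2 Cyp2, 3 Cyp3a, 1 Cyp4a, 4 Ugt, 2 Sult, 2 Serpina and 6 Gst rows, and no Ces row. A row is named by all its symbols, since its intensity cannot be divided among them, and by its probe set number where several rows carry the same symbols. Together the rows list 48 symbols in 17 different sets, and all 48 gene identifiers were found in the RefSeq gene table of GRCm38.p6. The symbols of each row lie on 1 chromosome, and only 14 of the 48 symbols also have a row of their own.

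RNA was measured with Affymetrix whole-transcript arrays in livers of mice aged 8 weeks and labelled male. The 4 groups were a GHR/MDR2 double knockout (GHR-/-MDR2-/-), a GHR knockout (GHR-/-), an MDR2 knockout (MDR2-/-) and wild type. Each group was 1 array with RNA pooled from 3 livers; strain and the kind of deletion are not given in the sources used here. GHR is the growth hormone receptor, and MDR2, encoded by Abcb4, carries phosphatidylcholine into bile, so that its loss causes cholestasis and fibrosis. The series title asks whether resistance to growth hormone makes that fibrosis worse. With 1 array per genotype, a difference between pools has no replicate check and no p-value; having only 4 arrays is what bounds the precision. In whole liver, fewer cells of a type and less RNA per cell cannot be told apart.

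Growth hormone reaches hepatocytes in pulses in male mice and more evenly in female mice, and the transcription factor STAT5b carries this pattern to genes of many of these families. Major urinary proteins (Mup) are lipocalins that the liver secretes and that carry pheromones in urine. The cytochromes P450 of the Cyp2, Cyp3a and Cyp4a families oxidise drugs, steroids and fatty acids. UDP glycosyltransferases (Ugt), sulfotransferases (Sult) and glutathione transferases (Gst) conjugate such compounds for excretion, and Serpina1 genes encode alpha-1 antitrypsin, an inhibitor of neutrophil elastase.

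The pools were compared with their labels before the results. Ghr intensity was 935 in the double knockout, 1395 in the GHR knockout, 4485 in the MDR2 knockout and 4944 in the wild-type pool, and Abcb4 was 689, 1346, 663 and 1120 in the same order. The position of these probes relative to the deletions is unknown here, and Abcb4 in the GHR knockout and Ghr in the MDR2 knockout pool stayed near wild type. Xist, the RNA that silences an X chromosome in female cells, stood at 1400 in the GHR knockout pool, against 17 in the double knockout, 18 in the MDR2 knockout and 16 in the wild-type pool, although all pools are labelled male. Of Y-linked genes, Eif2s3y was 680 in that pool against 840 to 951 in the others, Uty 308 against 345 to 368, and Kdm5d 259 against 212 to 268, within their range. On lists of genes known to be sex-biased in mouse liver, 9 of 10 male-biased genes with a row were at least 2-fold lower and 7 of 10 female-biased genes at least 2-fold higher in the GHR knockout than in the wild-type pool, counted where the higher pool reached an intensity of 100. In the double against the MDR2 knockout pool 8 of 10 and 3 of 10 were. Every comparison that uses the GHR knockout pool therefore stands beside the comparison of the double knockout with the MDR2 knockout, which does not use it. All 14 hepatocyte markers examined were well over the level floor in every pool, with a summed intensity of 121335 to 130591.

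A difference between 2 pools is given as log2 of their intensity ratio. It was counted at 2-fold only where the higher pool reached an intensity of 100, the median of rows with 1 symbol. By this floor 26 of the 27 rows were measured in at least 1 pool and 22 in all 4. The remaining row, Ugt2a2/Ugt2a1, of glycosyltransferases best known from the olfactory epithelium, was 11, 10, 11 and 11 in the double knockout, GHR knockout, MDR2 knockout and wild-type pools and was not compared. Of all 12655 rows with a symbol that reached the floor, the typical spread of a single difference, taken from the departure from additivity, was 0.23 (robust SD, log2), which also holds any real departure. The plot of all 27 rows by pool gives an overview.

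**Figure D1:**
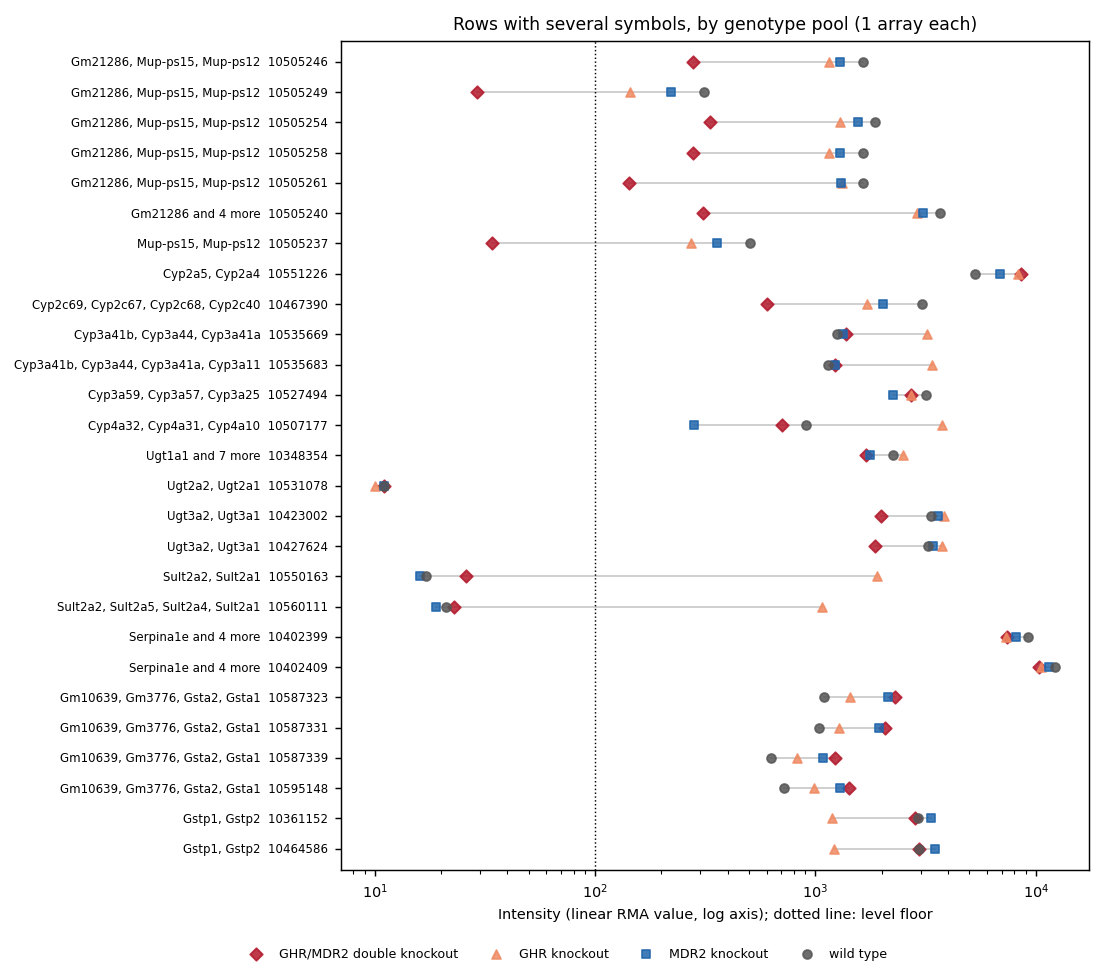
Intensity (log axis) of the 27 rows in the GHR/MDR2 double knockout, GHR knockout, MDR2 knockout and wild-type pools, 1 array each; the dotted line is the floor of 100. The 7 Mup rows were lowest in the double knockout pool, and both Sult2a rows reached the floor in the GHR knockout pool alone.

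The Mup rows were the largest group and stood lower in the double knockout than in any other pool. Row 10505240, which lists Gm21286/Mup-ps15/Mup16/Mup-ps12/Mup6 and so includes the protein-coding Mup6 and Mup16, was 308 in the double knockout, 2892 in the GHR knockout, 3092 in the MDR2 knockout and 3680 in the wild-type pool. The 5 rows of Gm21286/Mup-ps15/Mup-ps12 ranged from 29 to 333 in the double knockout, from 144 to 1325 in the GHR knockout, from 221 to 1558 in the MDR2 knockout and from 312 to 1864 in the wild-type pool. Of these, rows 10505246 and 10505258 had equal values in all 4 pools, 278, 1151, 1291 and 1650, and are not separate measurements. Row 10505237, Mup-ps15/Mup-ps12, was 34, 273, 358 and 506 in the same order. The names of most of these entries are those of pseudogenes or predicted genes, although RefSeq lists Mup-ps12 as protein coding and Gm21286 and Mup-ps15 as long noncoding RNA. Since Mup copies are nearly alike, signal of other Mup genes in these rows cannot be told apart.

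All 7 Mup rows were at least 2-fold lower in the double knockout than in the MDR2 knockout pool. In the 5 rows that reached the floor in both pools the difference was -3.33 to -2.22 (log2), or 4.64-fold to 10.04-fold lower. In these 5 rows it was -3.23 to -1.95 against the GHR knockout pool and -3.58 to -2.48 against wild type. In the other 2 rows, 10505237 and 10505249, the double knockout value of 34 and 29 lay under the floor; taken at the floor they were at least 3.58-fold and 2.21-fold lower than in the MDR2 knockout pool, and at least 2.73-fold and 1.44-fold lower than in the GHR knockout pool. With either gene lost alone the differences were smaller, apart from row 10505249. There GHR loss alone gave 2.17-fold and MDR2 loss alone 1.41-fold, about the folds at the floor. Over the 7 rows, the GHR knockout minus wild-type difference ran from -1.12 to -0.31 (log2), with row 10505249 past 2-fold. The MDR2 knockout minus wild-type difference ran from -0.50 to -0.25, with no row past 2-fold. The departure from additivity is the difference with GHR loss in MDR2-null liver minus that in MDR2-intact liver, and so uses the GHR knockout pool. It was -2.98 to -1.69 (log2) over the 5 rows that reached the floor in both pools. In rows 10505237 and 10505249 it was -2.51 and -1.81, but with double knockout values under the floor. Taken at the floor, these 2 rows do not show a 2-fold departure.

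Rows with 1 symbol of the same family did not all follow this pattern. Of the rows with 1 symbol given here and further on, those whose symbol is on none of the 27 rows were picked after their values were seen. The row of Gm21286 alone was 35 in the double knockout, 2057 in the GHR knockout, 2033 in the MDR2 knockout and 3238 in the wild-type pool, and so was lowest in the double knockout as well. Mup3 was 415, 2209, 7520 and 8541, and Mup21, which is male-biased in mouse liver, was 35, 48, 400 and 922 in the same order. For Mup3 the double knockout pool was 18.1-fold lower than the MDR2 knockout pool and the GHR knockout pool 3.87-fold lower than wild type, while Mup21 lay under the floor in both pools without GHR. The GHR knockout is the pool with Xist at 1400. Markers of some other cells were higher in the double knockout pool. Of 10 cholangiocyte markers 9 had a row. Each of the 9 reached the floor in some pool. Most lay under it in the GHR knockout and wild-type pools, such as Cftr at 22 and 23. The 9 markers summed to 2364 in the double knockout, 765 in the GHR knockout, 1038 in the MDR2 knockout and 587 in the wild-type pool. The 8 macrophage markers summed to 9504, 3501, 6233 and 2643 in the same order, with Marco under the floor in every pool. Of these sums Lyz2 alone made up 5243, 977, 2879 and 847. Between the double and the MDR2 knockout pool the 8 markers had a median difference of 0.49 (log2), with 1 at least 2-fold higher. Within that list Clec4f, a marker of Kupffer cells, was 628 in the double against 885 in the MDR2 knockout pool. The 7 stellate cell and myofibroblast markers summed to 2110, 1631, 2304 and 1370 and had a median difference of 0.02 (log2) between the double and the MDR2 knockout pool, with none 2-fold apart. Hepatocyte markers had a median difference of -0.05 (log2) between the double and the MDR2 knockout pool, and none of the 14 was 2-fold apart. Between the double knockout and the wild-type pool their median was -0.04, and 1 was at least 2-fold lower, Asgr1 at 1098 against 2252. The part of such cells in the Mup result was not tested.

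The promoter table of RefSeq (GRCm38.p6) holds windows for 41 of the 48 symbols. For Mup6 the 60 bases before the start, chr4:60003421-60003480 on the plus strand, are shown because it is a protein-coding gene of row 10505240, with the TATAAA motif in capitals.
Mup6: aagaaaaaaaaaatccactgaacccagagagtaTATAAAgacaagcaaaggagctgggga

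The plot of pairwise differences sets the difference of each row with and without the other deletion side by side.

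**Figure D2:**
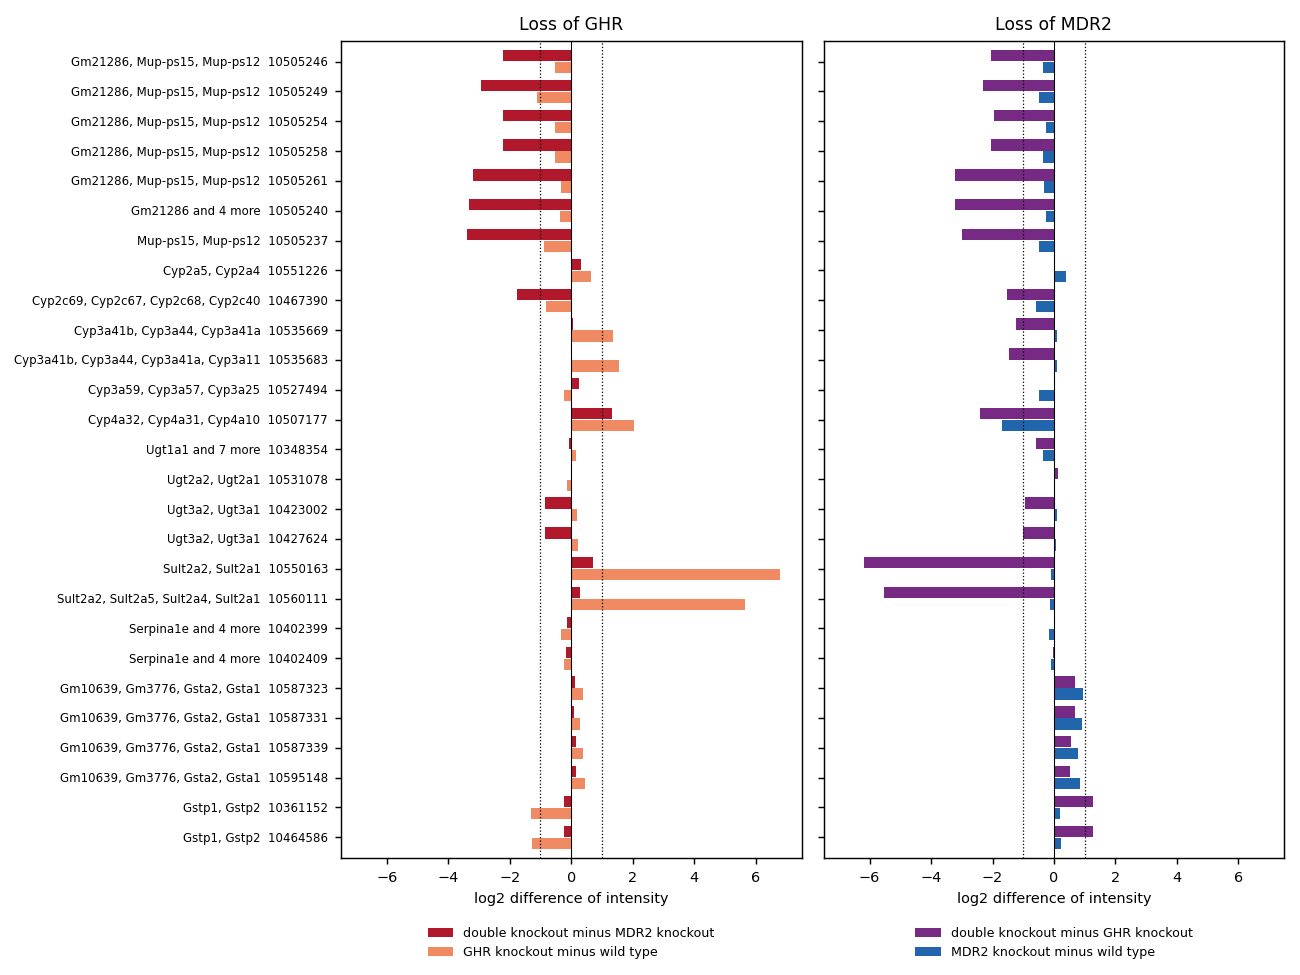
log2 difference of intensity for the 27 rows with loss of GHR (left: double knockout minus MDR2 knockout, and GHR knockout minus wild type) and with loss of MDR2 (right: double knockout minus GHR knockout, and MDR2 knockout minus wild type); dotted lines mark 2-fold. The Mup bars are long where the other gene was lost too, and the Sult2a bars only where the GHR knockout pool enters.

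Both Sult2a rows showed signal in the GHR knockout pool alone. Sult2a enzymes sulfate bile acids and hydroxysteroids, and Sult2a1 and Sult2a2 are female-biased in mouse liver. The row Sult2a2/Sult2a1 was 1906 in the GHR knockout pool, against 26 in the double knockout, 16 in the MDR2 knockout and 17 in the wild-type pool. The row Sult2a2/Sult2a5/Sult2a4/Sult2a1 was 1068 in the GHR knockout pool, against 23, 19 and 21 in these pools. Taken at the floor of 100, the GHR knockout pool was at least 19.1-fold and at least 10.7-fold higher than the wild-type pool and than the double knockout pool. This is also the pool with Xist at 1400, and the part of its sex in the result was not tested. Between the double knockout and the MDR2 knockout pool, with Xist at 17 and 18, both rows were under the floor in both pools and no fold is given.

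Among rows with 1 symbol, Sult2a3 followed the same course, at 667 in the GHR knockout pool and 14 in each of the others. Sult2a8 did not, with 176 in the double knockout, 1861 in the GHR knockout, 1781 in the MDR2 knockout and 3605 in the wild-type pool. For the estrogen sulfotransferase Sult1e1, also female-biased, the double knockout pool was 1845 and the GHR knockout pool 1114, against 36 in the MDR2 knockout and 20 in the wild-type pool. In the double against the MDR2 knockout pool Sult1e1 was thus higher and Sult2a8 lower, by 10.1-fold, while Sult2a3 and the rows with several Sult2a symbols were under the floor.

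The Cyp3a rows split by the genes they list. Cyp3a41a, Cyp3a41b and Cyp3a44 are female-biased steroid and drug hydroxylases, and Cyp3a11 is the main Cyp3a enzyme of both sexes. The row Cyp3a41b/Cyp3a44/Cyp3a41a was 1376 in the double knockout, 3213 in the GHR knockout, 1329 in the MDR2 knockout and 1249 in the wild-type pool. The row that adds Cyp3a11 was 1224, 3368, 1231 and 1139 in the same order. Both stood higher in the GHR knockout pool than in all others, by 2.57-fold and 2.96-fold over wild type, whereas the double knockout minus MDR2 knockout difference was 0.05 and -0.01 (log2), within the typical spread. The row of Cyp3a11 alone was 8242, 5117, 7573 and 7417, and that of Cyp3a44 alone 426, 306, 400 and 351, lower in the GHR knockout pool than in the others. For Cyp3a44 the GHR knockout minus wild-type difference was -0.20 (log2), within the typical spread. Cyp3a16, whose row is separate and which is female-biased, was 209 in the GHR knockout pool against 13 to 14 elsewhere. The third row, Cyp3a59/Cyp3a57/Cyp3a25, stayed within 2-fold in every comparison at 2710, 2722, 2255 and 3189.

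The sequences before the start of the Cyp3a41 and Cyp3a44 genes are close to each other. They lie outside the transcripts that a probe set reads and do not show how alike those are. Over the 60 bases before the start, on the minus strand at chr5:145720137-145720196, chr5:145584731-145584790 and chr5:145805875-145805934, Cyp3a41b differed from Cyp3a41a at 1 base and Cyp3a44 at 5; capitals mark these bases.
Cyp3a41a: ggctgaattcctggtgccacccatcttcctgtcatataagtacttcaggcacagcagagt
Cyp3a41b: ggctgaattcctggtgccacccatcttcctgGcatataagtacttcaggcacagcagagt
Cyp3a44: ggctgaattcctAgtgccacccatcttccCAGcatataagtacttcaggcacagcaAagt
Over the whole 300-base window, aligned with gaps, the identity was 97.0% between Cyp3a41a and Cyp3a41b and 93.0% between Cyp3a41a and Cyp3a44, and that of Cyp3a11 with these 3 was 70.4% to 71.8%.

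The Cyp4a row was the only one called by a test across all rows. Cyp4a10, Cyp4a31 and Cyp4a32 hydroxylate the end of fatty acid chains, and Cyp4a10 is a well-known target of the nuclear receptor PPAR alpha. The row Cyp4a32/Cyp4a31/Cyp4a10 was 706 in the double knockout, 3761 in the GHR knockout, 282 in the MDR2 knockout and 906 in the wild-type pool. It was thus highest with loss of GHR and lowest with loss of MDR2, and the double knockout lay between, 1.28-fold below wild type. With loss of GHR it was 4.15-fold higher in the GHR knockout than in the wild-type pool and 2.50-fold higher in the double than in the MDR2 knockout pool. With loss of MDR2 it was 5.33-fold lower in the double than in the GHR knockout pool and 3.21-fold lower in the MDR2 knockout than in the wild-type pool.

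In limma, fitted to the 4 arrays with an additive term for each gene, the row fell by 2.05 on the log2 scale on average with loss of MDR2 (SE 0.21, Benjamini-Hochberg adjusted p = 0.0319), in 2 of 2 pairs of pools. Loss of GHR went with an average of 1.69 (SE 0.21), higher in 2 of 2 pairs, and missed the threshold (limma, adjusted p = 0.0686). For each effect 1 of the 2 pairs uses the GHR knockout pool, with Xist at 1400. The part of that pool's sex was not tested. The pairs without it gave -1.68 (log2) for loss of MDR2 and 1.32 for loss of GHR. The MDR2 call was lost under 4 of 8 alternatives, with adjusted p between 0.0242 and 0.354 over all settings. Of the 5 Cyp4a rows with 1 symbol, 3 were at least 2-fold higher in the GHR knockout than in the wild-type pool, with Cyp4a10 at 389, 2292, 150 and 557 and Cyp4a31 at 466, 2165, 104 and 416 in the double knockout, GHR knockout, MDR2 knockout and wild-type pools. Cyp4a14 was 196, 4748, 40 and 153 in the same order. The other 2 were lower in the GHR knockout than in the wild-type pool, with Cyp4a12a at 181, 140, 7139 and 7891 and Cyp4a12b at 260, 61, 4977 and 4464, and both are male-biased in mouse liver. Whether the Cyp4a10 and Cyp4a31 rows share probes with the Cyp4a row is unknown here, and they are no separate support.

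Both Cyp2 rows were measured in all pools and had opposite courses. The row Cyp2c69/Cyp2c67/Cyp2c68/Cyp2c40, hydroxylases of fatty acids and drugs of which Cyp2c40, Cyp2c68 and Cyp2c69 are female-biased, was 601 in the double knockout, 1716 in the GHR knockout, 2021 in the MDR2 knockout and 3061 in the wild-type pool. It was 3.36-fold lower in the double than in the MDR2 knockout pool and 5.09-fold lower than in wild type, while neither single knockout was 2-fold below wild type. In limma the average effect of GHR loss was -1.29 (SE 0.24, adjusted p = 0.190) and that of MDR2 loss -1.06 (SE 0.24, adjusted p = 0.0970), neither past the threshold. The rows of Cyp2c67 alone, 304, 572, 1546 and 2710, and of Cyp2c68 alone, 263, 819, 430 and 1142, were also lowest in the double knockout pool. All 3 rows were highest in the wild-type pool. Both limma effects use the GHR knockout pool, the pool with Xist, and the part of its sex in these values was not tested.

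The row Cyp2a5/Cyp2a4 holds Cyp2a5, a coumarin hydroxylase, and Cyp2a4, a female-biased testosterone hydroxylase. It was 8585 in the double knockout, 8295 in the GHR knockout, 6917 in the MDR2 knockout and 5314 in the wild-type pool. All 3 knockout pools stood higher than wild type by less than 2-fold, at 1.62-fold, 1.56-fold and 1.30-fold. The double knockout pool was 1.24-fold higher than the MDR2 knockout pool. The GHR knockout is the pool with Xist at 1400, and the part of its sex was not tested. A separate row, Cyp2a22, differed more, with 948, 4368, 212 and 211 in the same order. Over the 60 bases before their starts, at chr7:26307132-26307191 and chr7:26835279-26835338 on the plus strand, both genes carry the TATAAA motif, in capitals, and their windows were 97.7% identical.
Cyp2a4: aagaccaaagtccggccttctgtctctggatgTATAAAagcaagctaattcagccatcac
Cyp2a5: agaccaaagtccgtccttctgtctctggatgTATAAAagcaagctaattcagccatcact

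The Gst rows held 2 classes with different courses. The 4 rows of Gm10639/Gm3776/Gsta2/Gsta1, alpha class transferases whose genes respond to the oxidative stress factor NRF2, were 1223 to 2309 in the double knockout, 828 to 1437 in the GHR knockout, 1088 to 2129 in the MDR2 knockout and 630 to 1094 in the wild-type pool. In each of the 4 rows the double knockout pool was highest, followed by the MDR2 knockout, the GHR knockout and the wild-type pool. In the MDR2 knockout against the wild-type pool they were 1.73-fold to 1.95-fold higher, and these 4 rows were the only ones of 24 compared that were at least 1.5-fold higher, where 5.71% of all rows with a symbol were. In the double knockout against the GHR knockout pool they were 1.44-fold to 1.62-fold higher, and in the double against the MDR2 knockout pool 1.07-fold to 1.12-fold higher. The last difference, 0.09 to 0.17 (log2), is within the typical spread, so the order of these 2 pools is not clear of it. The average effect of MDR2 loss in limma was 0.68 to 0.82 (log2, SE 0.15 each), with adjusted p from 0.0646 to 0.0935, past the threshold in none. The 4 rows list the same genes and are not independent of each other.

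In the promoter windows of Gsta1, Gm3776 and Gm10639 the same 39 bases surround a match to TTCNNNGAA, the core that STAT factors bind, shown in capitals. They lie on the plus strand at chr9:78230492-78230530, chr9:78256965-78257003 and chr9:78289766-78289804.
Gsta1: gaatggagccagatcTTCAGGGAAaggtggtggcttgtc
Gm3776: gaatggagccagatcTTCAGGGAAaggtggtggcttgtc
Gm10639: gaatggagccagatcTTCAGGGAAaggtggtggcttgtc
The Gsta2 window held no such match. The 41 symbols in the promoter table have 56 windows, of which 4 (7.14%), the 3 above and that of Ugt1a6a, held TTCNNNGAA on either strand, against 8.30% of all 32851 windows. TATAAA was found in 21 of the 56 (37.5%), against 13.6% of all windows. Both strands were searched, and Sult2a1, Sult2a2 and Mup16 have no window here.

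The pi class rows stood lower in the GHR knockout pool alone. Gstp1 is male-biased in mouse liver. The 2 rows of Gstp1/Gstp2 were 2844 and 2953 in the double knockout, 1191 and 1219 in the GHR knockout, 3346 and 3472 in the MDR2 knockout and 2936 and 2955 in the wild-type pool. The GHR knockout pool was 2.47-fold and 2.42-fold lower than wild type, whereas the double knockout pool was 1.18-fold lower than the MDR2 knockout pool in both rows, about the typical spread. The row of Gstp1 alone was 8804, 4415, 9849 and 9019 in the same order and had the same course. Gstp3 alone was 2257, 5498, 1703 and 3798, highest in the GHR knockout pool. That pool carried Xist at 1400, and the part of its sex in the Gstp values was not tested.

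**Figure D3:**
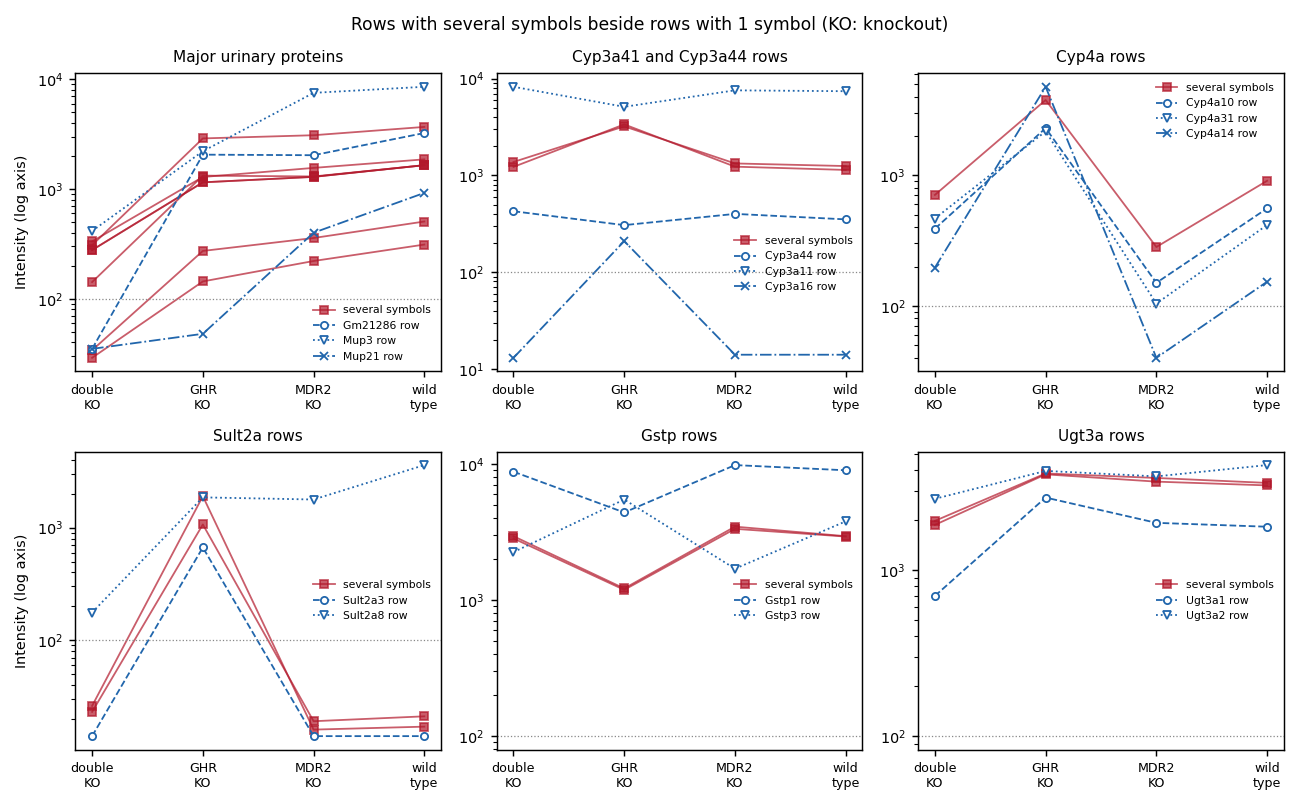
Intensity (log axis) in the double knockout, GHR knockout, MDR2 knockout and wild-type pools for rows with several symbols (red squares) and rows with 1 symbol of the same families (blue markers); lines join the values of 1 row, and the dotted line is the floor of 100. The Sult2a and Cyp3a41 rows peak and the Gstp1/Gstp2 rows dip in the GHR knockout pool, while the Mup and Ugt3a rows are low in the double knockout pool.

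Of the other rows, those of Ugt3a stood lower in the double knockout pool, and those of Ugt1a and Serpina1 were within 2-fold in every comparison. The 2 rows of Ugt3a2/Ugt3a1, glycosyltransferases of liver and kidney, were 1979 and 1872 in the double knockout, 3820 and 3774 in the GHR knockout, 3589 and 3411 in the MDR2 knockout and 3351 and 3238 in the wild-type pool. Only the double knockout pool stood apart, 1.81-fold and 1.82-fold below the MDR2 knockout pool, 1.93-fold and 2.02-fold below the GHR knockout pool and 1.69-fold and 1.73-fold below wild type. Row 10427624 alone passed 2-fold, against the GHR knockout pool, and lost this with cyclic loess, median and hepatocyte centring. Of rows with 1 symbol, Ugt3a1 was 699, 2735, 1926 and 1825 and Ugt3a2 was 2688, 3958, 3668 and 4291 in the same order.

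The Ugt1a row lists 8 genes, among them Ugt1a1, which conjugates bilirubin. These genes have first exons of their own and share the rest, so a probe set on the shared part reads them all. The row was 1691 in the double knockout, 2508 in the GHR knockout, 1773 in the MDR2 knockout and 2259 in the wild-type pool, within 2-fold throughout. The 2 rows of Serpina1e/Serpina1d/Serpina1c/Serpina1b/Serpina1a were 7387 and 10330 in the double knockout, 7364 and 10531 in the GHR knockout, 8165 and 11490 in the MDR2 knockout and 9207 and 12277 in the wild-type pool, highest in wild type and within 1.25-fold. The row of Serpina1c alone spread further, at 4466, 4856, 7081 and 8640.

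Promoter windows were alike for genes that share a row in some families and not in others. Only the 37 genes with exactly 1 window were aligned, which gave 54 of 82 pairs on the same row and left out every Mup, Cyp4a and Ugt3a pair and that of Sult2a1 and Sult2a2. Over these 54 pairs the identity ran from 46.5% to 97.7% with a median of 67.0%, against 44.0% to 55.7% with a median of 49.7% for 565 pairs from different families. The Ugt1a pairs were at 46.5% to 52.7% apart from Ugt1a9 and Ugt1a10 at 71.2%, and the Serpina1 pairs at 63.9% to 91.4%. These pairs share genes and are a description only.

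**Figure D4:**
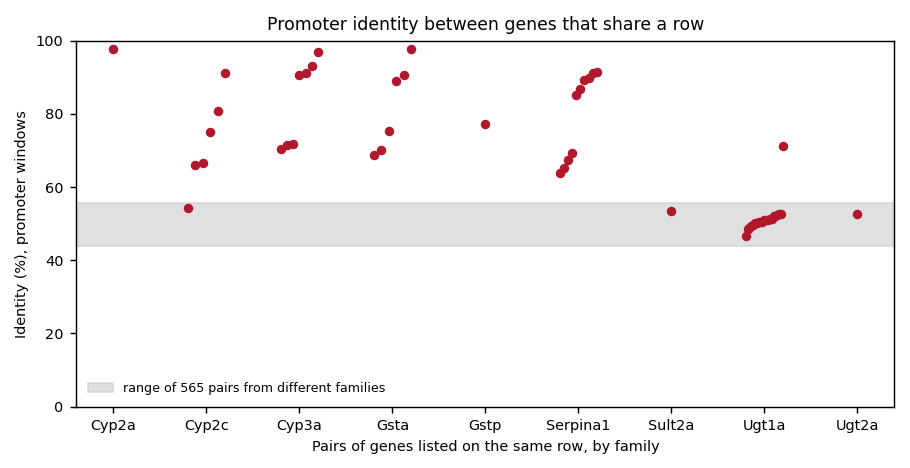
Identity (%) of the 300-base promoter windows for 54 pairs of genes listed on the same row, by family, among genes with exactly 1 window (no Mup, Cyp4a or Ugt3a pair); the grey band is the range of 565 pairs from different families, 44.0% to 55.7%. Most Ugt1a pairs lie in the band, and the Cyp2a, Cyp3a, Gsta, Gstp and Serpina1 pairs lie above it.

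Counted over all the rows, the comparisons differed in how many rows stood 2-fold apart and in which direction. In the GHR knockout against the wild-type pool 5 of 26 rows were higher, where 1.11% of all rows with a symbol were, and 3 were lower, where 0.944% were; 2.06% of all rows were 2-fold apart in either direction. The higher rows were the Cyp4a, both Cyp3a41 and both Sult2a rows, and the lower ones both Gstp1/Gstp2 rows and Mup row 10505249. In the double knockout against the MDR2 knockout pool, which does not use the pool with Xist, 1 of 24 was higher, the Cyp4a row, with 2.18% among all rows, and 8 were lower, the 7 Mup rows and the Cyp2c row, with 1.62% among all rows and 3.8% in either direction.

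In the MDR2 knockout against the wild-type pool no row was higher and 1 of 24, the Cyp4a row, was lower, with 2.16% and 0.786% among all rows and 2.95% in either direction. With cyclic loess or median centring 1 was higher and 1 lower, and with hepatocyte centring 2 and 1. In the double knockout against the GHR knockout pool 2 of 26 were higher and 14 lower, with 4.44% and 2.96% among all rows and 7.4% in either direction, and 13 were lower with values under the floor set to it. In the double knockout against the wild-type pool 1 of 24 was higher, Gsta row 10587323, and 8 were lower, with 6.48% and 2.88% among all rows and 9.36% in either direction. With cyclic loess these were 3 and 8, and with hepatocyte centring 4 and 8. The last 3 comparisons share pools with the first 2, and rows that list the same genes repeat each other, so the counts are not independent.

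The median difference of the rows that reached the floor was -0.04 (log2) in the GHR knockout against the wild-type pool, where all rows with a symbol had 0.08, and -0.19 in the double against the MDR2 knockout pool, where all had 0.07. Rows with exactly 1 symbol of the same 9 families gave 16 of 99 higher and 20 lower in the GHR knockout against the wild-type pool, and 8 of 95 higher and 28 lower in the double against the MDR2 knockout pool. Of 26 rows tested in limma, none passed for loss of GHR, where 0.435% of all 12655 rows did. At an unadjusted p under 0.05 there were 13, and 11.9% of all rows. With the trend and robust settings of limma there were 5, beside 1466 of all 12655 rows. With no level filter there were 3 of 27, beside 2064 of all 23410 rows. For loss of MDR2 1 row passed, the Cyp4a row, with 2.32% of all rows, and 16 at an unadjusted p under 0.05, with 21.7% of all rows. Under the same 2 settings the 16 became 8 and 6, beside 2709 of 12655 and 3234 of 23410 rows. Rows that list the same genes repeat each other in these counts. The fit assumes that an effect is the same with and without the other gene, and a row that departs from this inflates its own error. The departure was at least 2-fold in 15 of 26 rows, where 3.71% of all rows showed it. Of these, 13 were below 0, with 1.91% among all rows (7 Mup, 2 Sult2a, 2 Cyp3a41 and 2 Ugt3a rows), and both Gstp1/Gstp2 rows were above 0. Mup rows 10505237 and 10505249 are among the 13 only with double knockout values under the floor, not with these taken at it. The departure of every row uses the GHR knockout pool, with Xist at 1400. In the Sult2a, Cyp3a41 and Gstp1/Gstp2 rows that pool alone stood apart.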

How the data were processed

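Arrays of 4 pools were read as 1 intensity for each probe set. The authors used RMA in Affymetrix Expression Console 1.1, per the submitters' processing notes. The deposited intensity values are whole numbers from 6 to 22355, so log2 was taken with no pseudocount, and differences between low values are coarse. Scanner files and detection calls were not used here.

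Symbols came from GEO's platform annotation (21789 rows with 1 symbol, 1621 with several, 12146 with none). Probe positions and a genome build for the probe sets are not given in the sources used here. Promoter sequences are RefSeq's (GRCm38.p6), aligned with Biopython 1.88 (match 1, mismatch -1, gap opening -2, extension -0.5).

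limma 3.58.1 (lmFit and eBayes in R 4.3.3) was fitted to all 12655 rows with a symbol whose highest array reached 100, with 1 residual degree of freedom per row. Adjusted p are Benjamini-Hochberg at 0.05. The fit was also run on simulated arrays with additive effects only, which does not test rows that depart from additivity. With 1 array per genotype, the error behind each p-value is the row's own departure from additivity, moderated over all rows tested. It is no spread between animals or between repeated pools of a genotype. The rule named rows with a Mup symbol or a symbol on the sex-biased lists, the row with the highest mean in each family, the 8 highest and 8 lowest in each comparison, the 5 highest and 5 lowest departures from additivity, and rows called by limma; rows with 1 of their symbols could stand beside them. Members, lists and tests were chosen with earlier results of these data known. Alternatives were the level filter, fold threshold, cyclic loess, median and hepatocyte centring, a pseudocount of 16, averaging rows of 1 symbol set, and limma settings; those for the departure from additivity, and counting the 2 rows of equal values once, were chosen after seeing the data.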

Additional observations from a re-analysis of the deposited data

Results flagged for a closer look

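In 4 rows the difference with loss of 1 gene had opposite signs with and without the other gene, and the 2 values were at least 2-fold apart. Each rests on single pools, and the difference was not tested. For Ugt3a2/Ugt3a1 the difference with GHR loss was -0.86 (log2) without MDR2 and 0.19 with it in row 10423002, and -0.87 and 0.22 in row 10427624. With MDR2 loss it was -0.95 without GHR and 0.10 with it in row 10423002, and -1.01 and 0.0751 in row 10427624.

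For Cyp3a41b/Cyp3a44/Cyp3a41a (row 10535669) the difference with MDR2 loss was -1.22 without GHR and 0.0896 with it. For the row that adds Cyp3a11 (10535683) it was -1.46 and 0.11, and the difference with GHR loss was -0.0082 without MDR2 and 1.56 with it. The values near 0 lie within the typical spread of 0.23, and the larger ones of both Cyp3a rows use the GHR knockout pool, with Xist at 1400.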

How the results depend on the processing

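No paired analysis was possible because each genotype is 1 array, and leaving out an array leaves the fit no residual degree of freedom. No called difference changed sign under cyclic loess, median centring, hepatocyte centring or a pseudocount of 16. Hepatocyte centring moved the median of all rows most, by 0.23 (log2) in the double knockout against the wild-type pool, and median centring moved it by -0.11 in the GHR knockout against the wild-type pool. Of the recomputed counts 53 stayed within 1.5 times the reported one and 14 did not. Averaging rows of 1 symbol set, which leaves fewer rows, gave 5 rows 2-fold apart in place of 9 in the double against the MDR2 knockout pool, 10 in place of 16 against the GHR knockout, 5 in place of 9 against wild type, and 9 in place of 15 departures from additivity. At 1.5-fold, 6 rows were apart in place of 1 in the MDR2 knockout against the wild-type pool and 15 in place of 9 in the double knockout against the wild-type pool. In the MDR2 knockout against the wild-type pool cyclic loess and median centring gave 2 each and hepatocyte centring 3. For loss of MDR2 limma called 0 in place of 1 row with no level filter, with rows without a symbol, with cyclic loess and with median centring, and 3 with hepatocyte centring, which added Gsta rows 10587323 and 10587331 (adjusted p = 0.0438 and 0.0435); the cause was not tested. Over all rows tested, limma called 0 to 487 for loss of MDR2 (293 as reported) and 0 to 55 for loss of GHR (55 as reported). Whole-number values under 100 limit the Sult2a and lowest Mup differences: a pseudocount of 16 brought the Sult2a2/Sult2a1 difference in the GHR knockout against the wild-type pool to 5.86 in place of 6.81.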
